A study of Mus musculus with 2 samples.

Results

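Translation factors are the proteins that bring a ribosome to the start codon of an mRNA and then drive it along the coding sequence. The genes described here are the 67 translation initiation and elongation factor genes, with their close regulators, among the 16385 genes of the authors' deposited table for Malat1 knockout Th17 cells. They were taken by name, as every gene whose symbol begins with Eif or Eef and a digit, and 2 sex-linked genes of the eIF2 family were left out. The RNA came from naive CD4+ T cells of C57BL/6 mice lacking Malat1, an abundant nuclear long non-coding RNA, cultured for 72 h toward the Th17 fate with 0.25 µg/mL anti-CD3ε, 1 µg/mL anti-CD28, 0.1 ng/mL TGF-β and 20 ng/mL IL-6. The 1 group holds 2 knockout libraries, with 21554852 and 26916169 counts. The labels number them as replicates and do not say whether they came from separate mice or cultures, so their spread may be technical. Wild-type Th17 libraries of another series stand on the other side of the authors' comparison, so genotype and series cannot be told apart.

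Initiation starts when eIF4E binds the mRNA cap and, with the scaffold eIF4G and the helicase eIF4A, loads the small ribosomal subunit that carries eIF3 and the eIF2 complex with the initiator tRNA. Kinases that phosphorylate eIF2 and binding proteins that sequester eIF4E lower initiation under stress or nutrient shortage. During elongation, eEF1A delivers aminoacyl-tRNA and eEF2 moves the ribosome by a codon. Activated T cells raise protein synthesis strongly as they grow and divide.

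The knockout cells carried T cell and Th17 transcripts. On the wild-type side only a mean can be given, the value that the authors' mean over 4 libraries and both knockout values imply, here called the implied wild-type mean. The 7 T cell markers summed to 63647 and 59737 normalized counts (counts divided by the authors' size factor of each library), against an implied wild-type sum of 56479. The 5 Th17 markers summed to 97259 and 96249, against 77642. Malat1 itself is not analysed here, and 1 characteristics label of replicate 2 names Malat2 where the title names Malat1. The title was followed. The 8 kidney tubule markers summed to 21.3 and 41.7 in the knockout libraries, with Lrp2, Miox and Umod at 0 counts in both, against an implied wild-type sum of 32397, and all 8 had log2 fold changes below 0. Their standard errors were large, from 1.07 for Acy3 to 4.69 for Miox, and 2 of the 8 had an adjusted p under 0.05 (the authors' DESeq2). The 7 matrix and smooth muscle markers summed to 109 and 91.1, with Col1a2 at 0 counts in both, against an implied wild-type sum of 14772. Of these 7, 2 had an adjusted p under 0.05 (the authors' DESeq2), and Dcn stood at 61.9 and 48.6 against an implied wild-type mean of 55.9. The CD8 T cell list summed to 280 and 288 normalized counts in the knockout libraries, against an implied wild-type sum of 329. The myeloid list summed to 57.1 and 67.6, against 82.9, and the B cell list to 7.74 and 7.59, against 18.4. The erythroid list summed to 3.87 and 8.35, against 91.7, and all 4 of its genes had log2 fold changes below 0, none with an adjusted p under 0.05 (the authors' DESeq2). The part of these marker differences in the fold changes of the translation factors was not tested. In bulk RNA, fewer cells of a type and less RNA per cell cannot be told apart.

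No translation factor gene passed the test between knockout and wild-type cells. Of the 67 genes, 66 had an adjusted p in the authors' deposited table and 0 were under 0.05, where 0.159% of all tested genes were (the authors' DESeq2 Wald test, Benjamini-Hochberg). The smallest adjusted p of a member was 0.704, that of Eif4g2 (the authors' DESeq2). At an unadjusted p under 0.05, 1 member was higher, where 0.391% of all genes were, and 2 members were lower, where 1.72% of all genes were. These were Eef2 on the higher side, and Eif4g2 and Eif4a2 on the lower. All genes are an unlike background, as 58 members had a mean normalized count of at least 500. At that mean, 64 of all 7070 genes were higher and 92 lower at an unadjusted p under 0.05, against 1 and 2 of the 58 members. Over the whole list, 38 members had a positive and 29 a negative log2 fold change, knockout over wild type, with a median of 0.0092 in the authors' deposited table. Over all genes with a mean normalized count of at least 500, 52.8% were positive with a median of 0.0083, and over all 16385 genes 44.1% were positive with a median of -0.031.

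The precision differed widely among members. For 45 of the 67 genes the 95% interval of the log2 fold change, taken from the standard errors in the authors' deposited table, lay within 0.5 of 0, a 1.41-fold change, and for 61 it lay within 1. Several intervals were narrower still, as that of Eif4a1, from -0.15 to 0.12. In the 58 members with a mean of at least 500, log2 fold changes ran from -0.38 to 0.29 in the authors' deposited table. The standard error was smallest for Eef2, at 0.055, which is also the smallest of any gene.

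**Figure D1:**
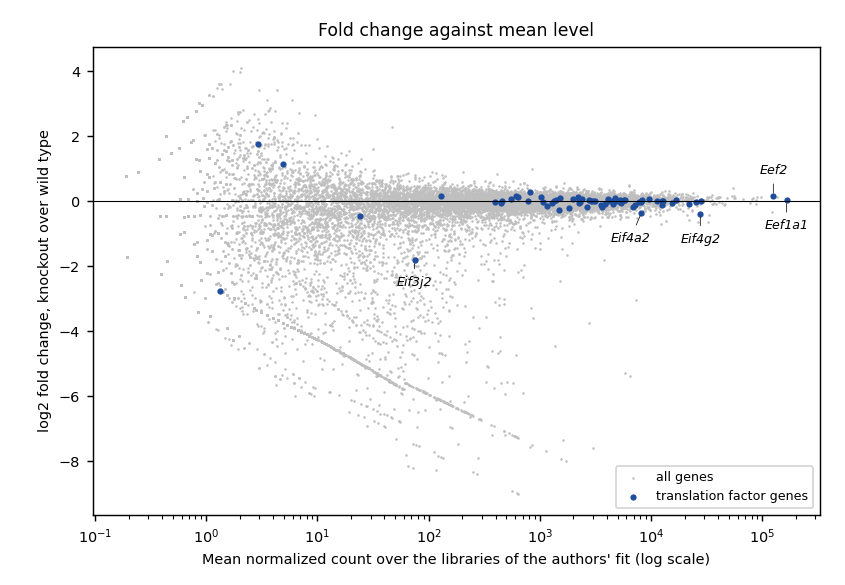
Log2 fold change, knockout over wild type, from the authors' fit (vertical axis) against the mean normalized count over the libraries of that fit (horizontal axis, log scale). Grey points are all 16385 genes and blue points the 67 translation factor genes, which sit close to 0 at high means, with Eif4g2 and Eif4a2 at -0.38 and -0.35 and the poorly covered Eif3j2 at -1.80.

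The level of the members in knockout cells spanned the whole range of the transcriptome. Together they took 3.226% of all counts in replicate 1 (95% Wilson interval 3.218 to 3.233) and 3.036% in replicate 2 (3.030 to 3.042), intervals that cover counting error only. The 13 genes named Eef took 1.788% and 1.581%, and the 54 named Eif took 1.438% and 1.455%. Eef1a1 ranked 1 among all genes by knockout mean and Eef2 ranked 3, and 6 members were among the 100 most abundant genes. In all, 53 members had a knockout mean above 1000 normalized counts and 5 had one under 50. Levels of different genes are compared below as normalized counts per kilobase of exon, with exon lengths from GENCODE M21 that include retained introns, so that genes with many annotated transcripts read low.

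**Figure D2:**
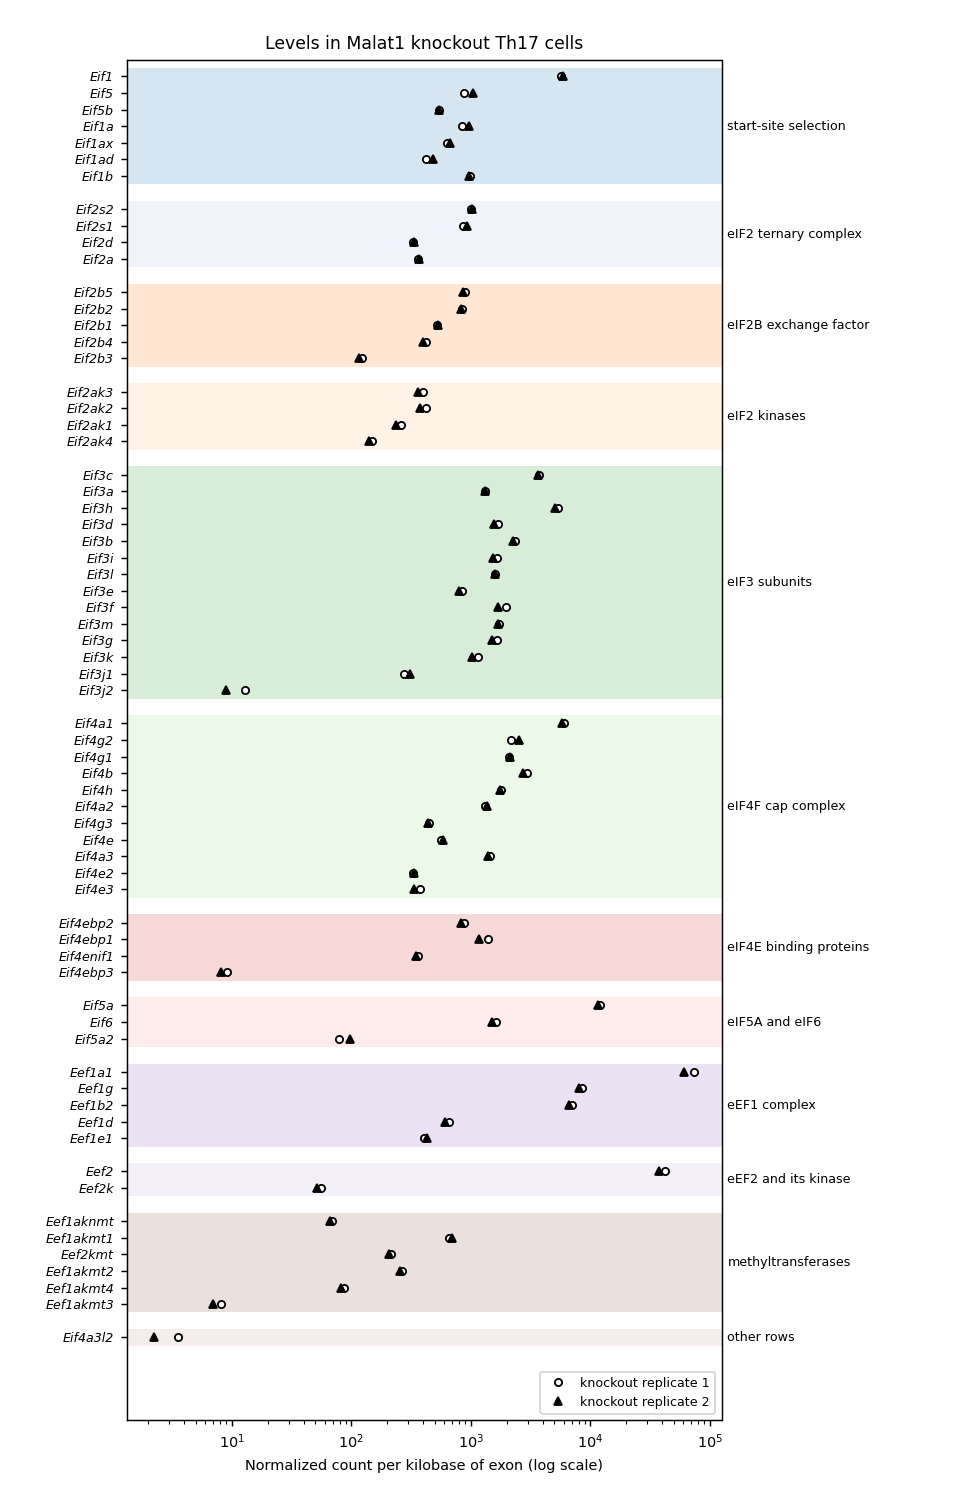
Normalized count per kilobase of exon (horizontal axis, log scale) in knockout replicate 1 (open circles) and replicate 2 (filled triangles) for each member with a count, grouped by role. Eef1a1 (67531 on average) and Eef2 (39815) stand above all others, and within roles the members differ far more than the replicates do.

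Some of these genes share promoter sequence. The windows examined, from 250 bases before to 50 bases after the annotated start, come from RefSeq (GRCm38.p6) and were found for 51 of the 67 members, with 66 windows. The E-box CACGTG, which reads the same on both strands and is bound by MYC, MAX and related factors, was in 16 of the 66 windows, or 24.2%. All promoter windows held it in 7.15% of cases. Among genes with a mean of at least 500 it was in 22.0% of the windows of members and 10.6% of the windows of all genes. That difference was not tested. The following stretches are shown because they hold the E-box, in capitals, in genes of the cap complex and in an elongation factor. They do not cover every step. They are the cap binder Eif4e at chr3:138527184-138527229 (+ strand), the scaffold Eif4g1 at chr16:20672653-20672698 (+), the helicase Eif4a1 at chr11:69672587-69672632 (-), and the elongation factor Eef2 at chr10:81176568-81176613 (+). All lie upstream of the annotated start, by 64, 54, 189 and 43 bases to the first base of the E-box.
Eif4e: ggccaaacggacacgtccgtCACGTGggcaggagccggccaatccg
Eif4g1: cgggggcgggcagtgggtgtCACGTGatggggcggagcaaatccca
Eif4a1: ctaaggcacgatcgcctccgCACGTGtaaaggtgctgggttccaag
Eef2: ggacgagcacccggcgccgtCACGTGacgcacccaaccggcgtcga

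The 14 members with an E-box had a median log2 fold change of 0.0021, with 7 positive and 7 negative, and the 37 members with a promoter entry and no E-box had a median of 0.0059, with 20 positive and 17 negative (values from the authors' deposited table). A match describes the letters only, and binding was not measured.

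Many mRNAs of the translation apparatus begin with a pyrimidine tract, the 5′ terminal oligopyrimidine or TOP motif, through which mTOR and LARP1 control their translation. The letters CTCTT, a short word of such tracts, were searched on the transcribed strand from 25 bases before to 25 bases from the annotated start, and were in 10.6% of member windows and 6.85% of all windows. Among the 9 members known as TOP mRNAs, 5 had an entry and 3 held the word: Eef1a1, Eef2 and Eif3f. The first copy of the word lay at position 16 in Eef2, past the annotated start, and at -19 in Eif3f, before it. In Eif3f another copy follows the start, and in Eef1a1 the word lay at -3. A match therefore need not be a tract at the 5′ end of the mRNA. The windows of Eef2 at chr10:81176606-81176655 (+ strand) and Eif3f at chr7:108934390-108934439 (+) are printed as examples, with the word in capitals and the annotated start after the first 25 bases of each.
Eef2: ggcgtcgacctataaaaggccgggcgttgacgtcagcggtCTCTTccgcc
Eif3f: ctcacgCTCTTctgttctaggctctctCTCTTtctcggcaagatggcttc

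The 9 TOP mRNAs (Eef1a1, Eef1b2, Eef1d, Eef1g, Eef2, Eif3e, Eif3f, Eif3h and Eif4b) differed little between genotypes. By the authors' deposited table, 8 of them had a positive log2 fold change and 1, Eef1g, a negative one, with a median of 0.040, and 6 were positive once the trend of fold change with GC content was subtracted. All 9 were lower in knockout replicate 2 than in replicate 1, by a median log2 ratio of -0.10, where the median over all genes with a knockout mean of at least 50 was -0.0030. The shift was not limited to them. Of the 62 members at that level 43 were lower and 19 higher, with a median of -0.050, and the 4 eIF2 kinases had a median of -0.14.

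Start-site selection is the task of eIF1 and eIF1A, which hold the scanning ribosome open, of eIF5, the GTPase activator of eIF2, and of eIF5B, which joins the large subunit. Eif1 was the most abundant gene of this role, at 12007 and 12315 normalized counts, against an implied wild-type mean of 13078. All 7 genes grouped under this role (Eif1, Eif1a, Eif1ax, Eif1b, Eif1ad, Eif5 and Eif5b) had negative log2 fold changes in the authors' deposited table, from -0.17 to -0.055, and none passed. Eif1ad was grouped with the others although it encodes none of the factors named above. All 7 stayed below 0 with the GC trend subtracted, though Eif1a (-9.2e-05) and Eif1ax (-0.0033) then stood at practically 0, and with fold changes centred on the median of all genes. Eif5 had the lowest, at 5984 and 7059 normalized counts in the knockout libraries against an implied wild-type mean of 7318, both under that mean, with a log2 fold change of -0.17 in the authors' deposited table (SE 0.11, 95% interval -0.39 to 0.05). Its knockout replicates differed by 0.24 on the log2 scale, more than that fold change. The median GC content of these 7 transcripts was 43.7%, against 49.9% over all members, and the fitted GC trend was -0.089 at 40% GC and 0.053 at 55%.

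The eIF2 complex carries the initiator tRNA, and Eif2s1 encodes its alpha subunit, the target of the eIF2 kinases. Eif2s1 stood at 4297 and 4608 normalized counts, against an implied wild-type mean of 4673, and Eif2s2, the beta subunit, at 6823 and 6911, against 7372. Per kilobase they were close, at 899 ± 44.4 and 1017 ± 9.26 normalized counts (SD, n = 2). Both knockout libraries lay below the implied wild-type mean for each gene, and the authors' deposited table gives -0.064 (SE 0.17) for Eif2s1 and -0.097 (SE 0.13) for Eif2s2. Eif2a and Eif2d encode proteins outside the eIF2 trimer that can also bring initiator tRNA to the ribosome, and the authors' deposited table gives log2 values of -0.043 for Eif2a and 0.063 for Eif2d. Of these 4 genes 1 was positive as deposited and 4 with the GC trend subtracted, so their direction depended on that subtraction.

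Exchange of GDP for GTP on eIF2 is done by eIF2B. Its 5 subunit genes ran from 119 ± 3.33 normalized counts per kilobase for Eif2b3 to 877 ± 19.8 for Eif2b5, the catalytic subunit (SD, n = 2). Eif2b5 had 2311 and 2238 normalized counts in the knockout libraries, both slightly above the implied wild-type mean of 2222. By the authors' deposited table, 4 of the 5 log2 fold changes were positive and 1 negative, with a median of 0.017, and 2 were positive with the GC trend subtracted.

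All 4 eIF2 kinases were detected. Eif2ak3 (PERK, the sensor of endoplasmic reticulum stress) had 2406 and 2190 normalized counts, Eif2ak2 (PKR, the sensor of double-stranded RNA) 2145 and 1919, Eif2ak1 (the haem-regulated kinase) 1484 and 1346, and Eif2ak4 (GCN2, the sensor of uncharged tRNA) 1116 and 1050. Per kilobase, Eif2ak2 (397 ± 31.2) and Eif2ak3 (381 ± 25.3) differed by less than their SD, and Eif2ak1 (250 ± 17.2) and Eif2ak4 (145 ± 6.25) followed (SD, n = 2). Within each library Eif2ak2 was slightly above Eif2ak3, at 419 against 399 in replicate 1 and 375 against 363 in replicate 2. Their log2 fold changes in the authors' deposited table were 0.14 (SE 0.21) for Eif2ak3, 0.14 (SE 0.24) for Eif2ak4, 0.089 (SE 0.17) for Eif2ak2 and 0.034 (SE 0.20) for Eif2ak1. All 4 stayed above 0 with the GC trend subtracted and with fold changes centred, but each lay within its own standard error of 0. Every kinase was lower in knockout replicate 2 than in replicate 1, by -0.16 to -0.088 on the log2 scale.

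eIF3 is the largest initiation factor, a scaffold on the small subunit. Its 12 subunit genes from Eif3a to Eif3m, without Eif3j1 and Eif3j2, lay within a narrow range. Their log2 fold changes in the authors' deposited table ran from -0.021 to 0.055, with 10 positive and 2 negative, and 8 positive with the GC trend subtracted. All 12 had a 95% interval within 0.5 of 0. Eif3a, the largest subunit, had 11422 and 11407 normalized counts against an implied wild-type mean of 11400, and Eif3e 5703 and 5393 against 5515. Eif3c had the highest count, at 13048 and 12728, and Eif3h the highest level per kilobase, at 5203 ± 259 normalized counts (SD, n = 2). Across these 12 genes the level per kilobase spread from 826 for Eif3e to 5203. All 12 were lower in knockout replicate 2 than in replicate 1, with log2 ratios from -0.22 to -0.0019.

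Eif3j1 and Eif3j2 are near-identical copies of the gene for the loosely bound eIF3j subunit, so reads can be split between them and their counts are uncertain. Eif3j1 had 1624 and 1791 normalized counts in the knockout libraries, against an implied wild-type mean of 1973. Eif3j2 had 31.0 and 21.3, against 123. The log2 fold change of Eif3j2 was -1.80 in the authors' deposited table, with a 95% interval from -4.04 to 0.43. It was the lowest among members with a mean over the 4 libraries of at least 50. Eif3j2 reached that mean only through the wild-type side, as its knockout mean was 26.1, so its low rank is partly built in. The log2 fold change of Eif3j1 was -0.21 (95% interval -0.61 to 0.19) in the authors' deposited table. Both intervals include 0.

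Genes of the cap complex were grouped with their paralogues and helicase helpers, which are not all part of it, and this group held both members with an unadjusted p under 0.05 on the lower side. Eif4g2 encodes DAP5, an eIF4G relative without the eIF4E binding site that supports cap-independent and specialised initiation, and lies on chromosome 7 from 111067750 to 111083030 (GRCm38, ENSMUSG00000005610.17). It had 21975 and 25693 normalized counts in the knockout libraries, against an implied wild-type mean of 31605. Both knockout libraries lay below that mean, and they also differed from each other by 0.23 on the log2 scale, among the 5 largest replicate differences of members with a knockout mean of at least 50. Its log2 fold change in the authors' deposited table was -0.38 (SE 0.13, 95% interval -0.63 to -0.12, unadjusted p = 0.00382, adjusted p = 0.704, the authors' DESeq2). With the GC trend subtracted it was -0.33.

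Eif4a2 encodes a paralogue of the helicase eIF4A that is linked to repression by microRNAs, and lies on chromosome 16 from 23107444 to 23114136 (GRCm38, ENSMUSG00000022884.15). Its knockout values of 7042 and 7271 normalized counts lay close together and below the implied wild-type mean of 9245. The authors' deposited table gives a log2 fold change of -0.35 (SE 0.16, 95% interval -0.66 to -0.03, unadjusted p = 0.0302, adjusted p = 1.00, the authors' DESeq2). With the GC trend subtracted it was -0.26, and the GC content of its longest transcript was 40.2%.

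The paralogues of these genes had values near the implied wild-type mean. Eif4a1, the main eIF4A helicase, had 26080 and 24876 normalized counts against 25695, and a log2 fold change of -0.012 in the authors' deposited table (95% interval -0.15 to 0.12). Per kilobase it exceeded Eif4a2 by 4.56-fold in replicate 1 and 4.21-fold in replicate 2. Eif4g1, the main scaffold, had 15177 and 15463 against 15682, and a log2 fold change of -0.033 in the authors' deposited table (95% interval -0.21 to 0.15). Whether the fold change differs between paralogues was not tested.

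Eif4e, the cap-binding subunit, had 3360 and 3506 normalized counts against an implied wild-type mean of 3880. Both knockout libraries were below that mean, with a log2 fold change of -0.18 in the authors' deposited table (95% interval -0.46 to 0.10). Eif4e2, whose product competes for the cap and represses translation, stood at -0.16 and Eif4e3, a less common cap binder, at 0.29, the highest of the members with a mean of at least 50 (authors' deposited table). Eif4e3 had 946 and 836 normalized counts against an implied wild-type mean of 729, and its 95% interval ran from -0.24 to 0.81. The helicase helpers Eif4b and Eif4h stood at 0.020 and 0.067 in the authors' deposited table. Of the 11 genes of this role 5 were positive, and 2 with the GC trend subtracted.

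The eIF4E binding proteins block cap-dependent initiation until mTOR phosphorylates them. Eif4ebp1 had 3048 and 2549 normalized counts against an implied wild-type mean of 2698, so the knockout replicates lay on both sides of it. Eif4ebp2 had 5056 and 4826 against 4627. Per kilobase Eif4ebp1 was higher than Eif4ebp2, at 1275 ± 161 against 854 ± 28.2 normalized counts, and Eif4e itself stood at 571 ± 17.2 (SD, n = 2). Log2 fold changes in the authors' deposited table were 0.049 for Eif4ebp1 and 0.095 for Eif4ebp2, with 95% intervals of -0.26 to 0.36 and -0.14 to 0.33. Eif4ebp3 was nearly absent, with 6.77 and 6.07 normalized counts.

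Eif5a encodes the hypusine-bearing factor that relieves stalled ribosomes, and Eif6 an anti-association factor of the large subunit. Eif5a had 28787 and 27707 normalized counts against an implied wild-type mean of 28276, with a log2 fold change of -0.0016 in the authors' deposited table (95% interval -0.14 to 0.14). Its paralogue Eif5a2 was 135-fold lower per kilobase, at 87.9 ± 12.8 against 11884 ± 321 normalized counts for Eif5a (SD, n = 2), and had the largest replicate difference of the members with a knockout mean of at least 50, 0.30 on the log2 scale. Eif6 had 4361 and 4090 against 4011.

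Among elongation factors, Eef2 was the 1 member on the higher side with an unadjusted p under 0.05. It encodes the translocase of the ribosome and lies on chromosome 10 from 81176631 to 81182498 (GRCm38, ENSMUSG00000034994.10). Its normalized counts were 139295 and 125395 in the knockout libraries, both above the implied wild-type mean of 118996, and replicate 2 lay 0.15 below replicate 1 on the log2 scale, as large as the fold change. The log2 fold change in the authors' deposited table was 0.15 (SE 0.055, 95% interval 0.04 to 0.26, unadjusted p = 0.00566, adjusted p = 0.840, the authors' DESeq2), a 1.11-fold higher fitted level. With the GC trend subtracted it was 0.10, and the transcript's GC content was 57.0%. Eef2k, the kinase that inactivates eEF2, had 412 and 379 against 397, and per kilobase lay 745-fold under Eef2.

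Eef1a1 encodes the carrier of aminoacyl-tRNA, and lies on chromosome 9 from 78478449 to 78489151 (GRCm38, ENSMUSG00000037742.14). It had 185174 and 151534 normalized counts in the knockout libraries, which lay on both sides of the implied wild-type mean of 162656. The replicates differed by -0.29 on the log2 scale, against a log2 fold change of 0.043 in the authors' deposited table (95% interval -0.13 to 0.22). The mouse genome holds processed copies of Eef1a1, and how reads shared with them were counted is not given in the sources used here. Its exchange factor subunits Eef1b2, Eef1g and Eef1d stood at 0.053, -0.066 and 0.0023 on that scale in the authors' deposited table. Eef1e1, whose product belongs to the multi-tRNA synthetase complex, had 1320 and 1401 against an implied wild-type mean of 1641, with a log2 fold change of -0.27 in the authors' deposited table (95% interval -0.70 to 0.17).

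The 6 methyltransferase genes that act on eEF1A or eEF2 ran from 7.58 normalized counts per kilobase for Eef1akmt3 to 676 for Eef1akmt1. Eef1akmt1 (0.17), Eef1akmt4 (0.17) and Eef1aknmt (0.15) were among the 5 highest log2 fold changes of the authors' deposited table for members with a mean of at least 50, with standard errors of 0.30, 0.63 and 0.31. Eef1akmt3 had 22.2 and 19.0 normalized counts. Eif4a3l2, a copy of the exon junction helicase gene Eif4a3, had 5 and 4 counts, and its sister copy Eif4a3l1 had 0 counts in both libraries, which allows up to 2.90 and 2.28 normalized counts.

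**Figure D3:**
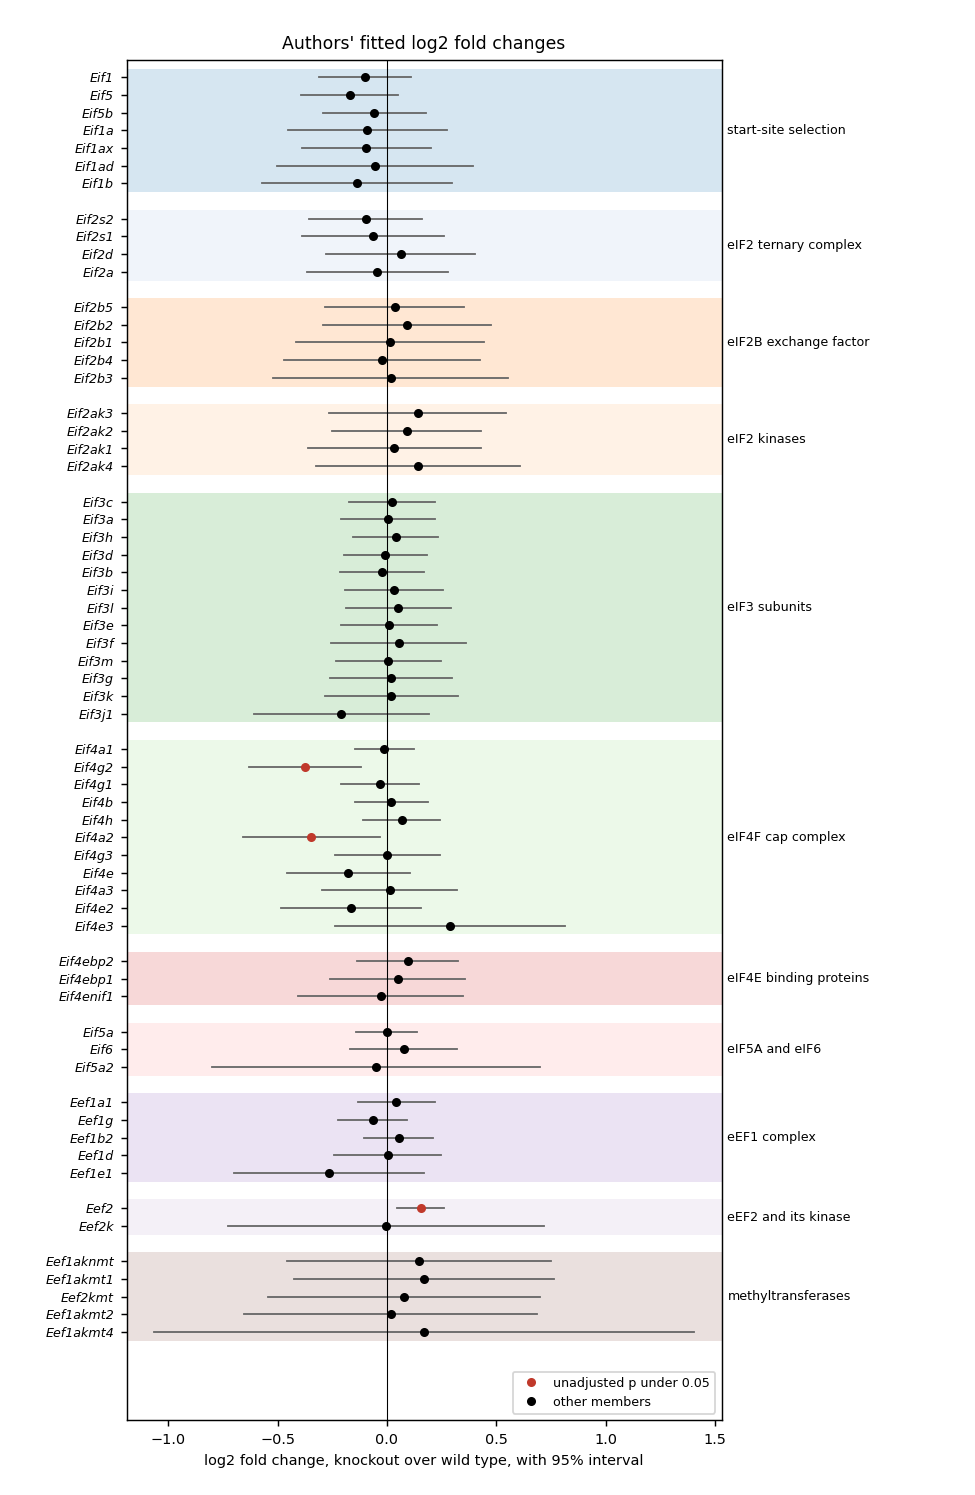
Log2 fold change, knockout over wild type, with its 95% interval from the authors' standard errors (horizontal axis) for the 62 members with a knockout mean of at least 50 normalized counts, grouped by role. The intervals of Eif4g2, Eif4a2 and Eef2 (red) leave out 0 and the others include it.

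The authors' deposited table is named as a multifactor fit, whose factors the sources used here do not give, so its standard errors may leave out a shift shared by libraries of both genotypes. Replicate ratios are therefore set beside the fold changes as a description only. In the 62 members with a knockout mean of at least 50, the median absolute log2 ratio between the replicates was 0.080, against 0.10 over all genes at that level, and 27 had a fold change larger in size than their replicate ratio. Both knockout libraries lay above the implied wild-type mean for 20 of the 62, both below for 17, and 1 on each side for 25. Of these 62 members 43 were lower and 19 higher in replicate 2 than in replicate 1. By role, 5 of 7 start-site genes and all 4 genes of the eIF2 role were higher in replicate 2, and 12 of 13 eIF3 genes and 4 of 4 eIF2 kinases were lower. The GC content of the eIF2 role had a median of 40.4% and that of the eIF3 genes one of 49.7%. The part of GC content in these replicate ratios was not tested.

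**Figure D4:**
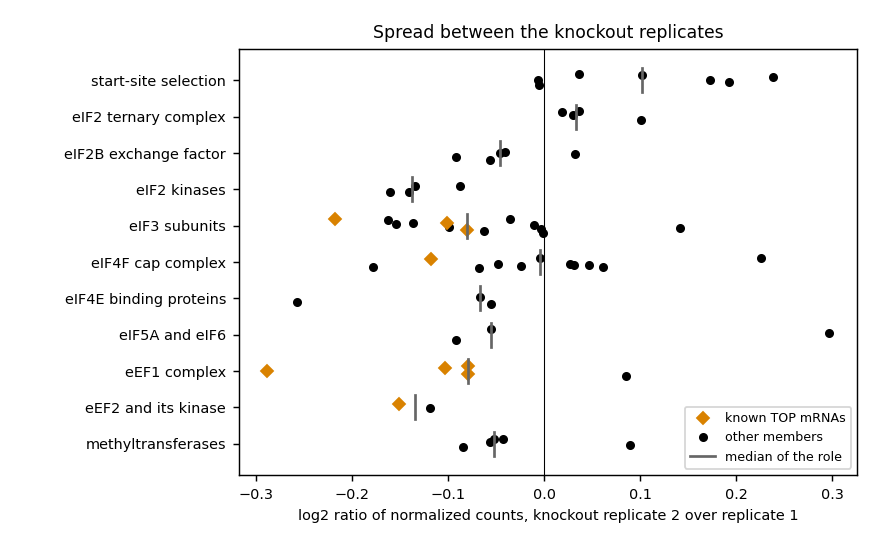
Log2 ratio of normalized counts, knockout replicate 2 over replicate 1 (horizontal axis), for the 62 members with a knockout mean of at least 50, by role. Diamonds are the 9 known TOP mRNAs, all below 0, circles the other members, and grey bars the median of each role.

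Several of these genes contain small nucleolar RNA genes. By GENCODE M21, 9 of the 67 members (13.4%) contain an annotated snoRNA gene on their own strand, against 1.44% of all genes. At a mean of at least 500 it was 15.5% of the 58 members against 2.36% of all genes. The hosts were Eif5, Eif2ak3, Eif3a, Eif4a1, Eif4a2, Eif4g1, Eif4g2, Eef1b2 and Eef2, and 18 annotated snoRNA genes lay in them, none of which has a row in the table. All 3 members with an unadjusted p under 0.05 were hosts, which was noticed after their values were seen. Hosts were also more abundant and more precisely measured, so smaller differences reach that p. Their median knockout mean was 15320 normalized counts against 2651 for the other members, and their median standard error 0.11 against 0.16. Whether hosting a snoRNA goes with a fold change was not tested. The 9 hosts had 4 positive and 5 negative log2 fold changes with a median of -0.012 in the authors' deposited table, and the 58 others 34 positive and 24 negative with a median of 0.013.

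In 7 lists of other genes of translation, 59 of the 60 symbols listed were measured, and Gcn1l1 had no row. For the 59 the authors' deposited table calls 0 higher and 1 lower at an adjusted p under 0.05 (the authors' DESeq2). Of all tested genes 0.159% were called, so 0 passing in lists this short says little about each list. The gene called lower was Ddx3x, a helicase that helps initiation on structured 5′ leaders. It had 7474 and 9107 normalized counts in the knockout libraries against an implied wild-type mean of 11406. Its log2 fold change in the authors' deposited table was -0.46 (SE 0.090, adjusted p = 0.000671, the authors' DESeq2). With the GC trend subtracted that fold change was -0.38. Among the 11 partners of the cap complex, 5 were positive and 6 negative, with the poly(A) binding protein Pabpc1 at -0.084 and Paip1, its partner, at -0.46 with a standard error of 0.30 (authors' deposited table).

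Of the 9 genes of release and recycling, 8 had negative log2 fold changes and 0 passed. The termination factors Gspt1 and Etf1 stood at -0.21 (SE 0.11) and -0.19 (SE 0.12), the recycling ATPase Abce1 at -0.14 (SE 0.16), and Hbs1l, of ribosome rescue, at 0.14 (SE 0.16), in the authors' deposited table. In mTOR and MNK signalling to the cap complex, 6 were positive, 5 negative and 0 passed. Mknk2, which encodes a kinase of eIF4E, had the smallest p of that list, at 9156 and 8665 normalized counts against an implied wild-type mean of 7541 (log2 fold change 0.24, SE 0.099, unadjusted p = 0.0156, DESeq2 values of the authors' deposited table).

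Of 7 genes around the eIF2 phosphatases and GCN2, 2 were positive, 5 negative and 0 passed. The 8 genes that modify eIF5A and eEF2 gave 6 positive and 2 negative, the 3 genes of selenocysteine elongation 2 and 1, and the 10 mitochondrial factors 2 and 8, with 0 passing in each by DESeq2 (authors' deposited table). Their median log2 fold changes were -0.051 for the phosphatase and GCN2 list, 0.068 for the modifiers, 0.013 for selenocysteine and -0.041 for the mitochondrial factors (authors' deposited table).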

How the data were processed

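RNA-seq of ribosome-depleted RNA from 2 Malat1 knockout Th17 libraries was analysed from 1 deposited table of 16385 genes. The authors' table gives raw counts per gene, a normalized signal, which is the count over each library's size factor, and the mean of that signal over 4 libraries. It also gives the authors' log2 fold changes with standard errors, the Wald statistic (a score) and the p-values deposited with it. The submitters' processing notes name DESeq2 1.18.1, featureCounts, STAR 2.6.1a and the build mm10. The sources used here give no annotation, strand setting, treatment of shared reads or model factors. The table's 4 wild-type columns belong to no sample of the series and were left unread, so no new model between genotypes was fitted. The only new p-values were those recomputed with the GC trend subtracted. A gene counted as called where the authors' adjusted p was under 0.05 (14481 genes had one, 1904 none).

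The implied wild-type mean was checked against the authors' fold change and gave a median gap of 0.0015 (log2) in 7043 genes with a mean of at least 500 that were not near-absent from knockout. Exon lengths, GC content of the longest transcript and snoRNA genes came from GENCODE M21, where 66 of 67 members matched by versioned ID. The GC trend was a lowess curve (span 0.3, statsmodels 0.14.6, Python 3.11.15, tested on simulated data) over genes with a mean of at least 50. Replicates may share technical sources of spread.

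Members, lists and roles were chosen with earlier results of these data known. Genes named are members with an unadjusted p under 0.05, the 5 highest and 5 lowest fold changes at a mean over the 4 libraries of at least 50, the 5 largest replicate ratios at a knockout mean of at least 50, the most abundant of each role, those with a knockout mean under 50, and genes fixed by name. Others named complete a role and were picked with values in view.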

Additional observations from a re-analysis of the deposited data

How the results depend on the processing

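The count of called members stayed at 0 with p-values adjusted over the 10978 genes with a mean of at least 50, without the 235 genes near-absent from knockout, with the GC trend subtracted, and at an adjusted p under 0.1. The p-values were those of the authors' DESeq2, except with the GC trend subtracted. There they were recomputed from the shifted fold changes and the authors' standard errors. The smallest adjusted p of a member, that of Eif4g2, was 0.620, 0.999988 and 0.99998 under the first 3 of these 4 settings. At an unadjusted p under 0.05 the count was 1 higher and 2 lower. The number of positive fold changes, 38 of 67, was 39 of 67 when centred, 34 of 67 with the GC trend subtracted, 36 of 63 and 34 of 58 at a mean of at least 50 and 500, and 25 of 48 without copies and regulators. The median log2 fold change ran from 0.0020 to 0.012. The members' share of counts averaged 3.131%, from 3.036% to 3.226% without either replicate, and 2.316% without Eef1a1. With the GC trend subtracted, 8 members turned negative and 4 positive, with deposited log2 fold changes of at most 0.097 in size. Among them were Eif2s2 (0.0062), Eif2s1 (0.015), Eif5a2 (0.052) and Eif2b5 (-0.012). Eif5a (0.0016) changed sign when centred. The median replicate difference was 0.080, and 0.063 with CPM. No paired analysis was possible because there is 1 group, and no wild-type library could be left out. The Wald statistic had an SD of 0.764 over genes with a mean of at least 50, narrower than the 1 that the test assumes, and a member without a call may still differ.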
